A study of Mus musculus with 12 samples.

Results

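The matrix metalloproteinase cluster of mouse chromosome 9 was followed across 4 groups of breast tumour cells as a set of 9 genes chosen by name. Mmp13, Mmp12, Mmp1b, Mmp3, Mmp10, Mmp8 and Mmp20 encode secreted proteases, and Dcun1d5 and Dync2h1 lie beside them. They are 9 of the 55492 features in the count table and 9 of the 15052 that passed a filter on low counts. The genes were picked with their values in these libraries known, so their levels and differences are a description and carry no test.

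RNA was sequenced from CCN6KOT cells, which were grown as a primary line out of a breast tumour of a mouse and are described as spindle metaplastic, with 3 libraries in each of 4 groups, all from cells given lentivirus and selected with puromycin. DNTCF4_EZH2 cells carried a dominant negative TCF4 construct plus a second construct labelled EZH2. DNTCF4_SET cells carried the dominant negative plus a second construct labelled SET, a name that the labels do not expand. DNTCF4 cells are labelled DNTCF4-Vector, so the label names a vector beside the dominant negative, without EZH2 or SET. Vector cells, labelled PPGS-Vector, carried a control lentivirus. Below, a second construct means EZH2 or SET. The dominant negative is thus shared by all 3 groups set against Vector, and no group carried EZH2 or SET without it. TCF4 is a DNA-binding partner of beta-catenin in Wnt signalling and is encoded by Tcf7l2, and EZH2 is the histone methyltransferase of a Polycomb repressive complex. All cells come from 1 line, and separate cultures are not stated for the replicates. The p-values therefore cover only the variation among these 12 libraries, which may be technical.

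Library totals ran from 23597545 to 33999982 counts. Tcf7l2 averaged 45.5 ± 1.77, 35.2 ± 2.68 and 39.8 ± 2.41 CPM, the counts of a gene scaled to library size, in DNTCF4_EZH2, DNTCF4_SET and DNTCF4 cells and 11.0 ± 2.48 CPM in Vector cells (SD, n = 3 each). Ezh2 averaged 449.9 ± 20.5 CPM in DNTCF4_EZH2 cells, 546 ± 33.1 CPM in DNTCF4_SET cells, 65.4 ± 3.10 CPM in DNTCF4 cells and 57.9 ± 1.53 CPM in Vector cells, so it was high in both groups with a second construct. Each of the 12 replicate pairs differed beyond sampling noise, at 2.44 to 20 for chi-square divided by its degrees of freedom. DNTCF4 replicate 1 stood apart, at 20 and 12.7 against the other DNTCF4 libraries, which differed from each other by 3.28. Among markers of the labelled tumour type, Vim and Fn1 reached group means of 645 to 1025 and 3861 to 8722 CPM, highest in Vector cells. Zeb1 and Zeb2 averaged 74.19 to 87.15 and 106.3 to 119.9 CPM, lowest in Vector cells. Cdh2 averaged only 1.60 to 2.03 CPM, and Twist1 was at 0 in the 12 libraries. The epithelial keratins Krt8 and Krt18 were present, at 83.0 to 87.8 and 229 to 255 CPM as group means. The other 4 epithelial markers, Cdh1, Epcam, Krt5 and Krt14, averaged at most 1.01 CPM in any group, with Krt5 at 0 outside DNTCF4_EZH2.

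Matrix metalloproteinases are zinc-dependent endopeptidases that are made as inactive proenzymes and cut collagens, proteoglycans and other proteins outside the cell. Tumour cells and the stroma around them use these enzymes to remodel the matrix, and in mouse mammary tumours several of them have been tied to invasion. The genes of the cluster are a family that arose by duplication, and transcription of several of them is known to respond to inflammatory cytokines through AP-1 sites close to the start.

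In the GRCm38 build the 9 genes span chr9:6928503-7674979, or 746477 bases. Along the chromosome the order is Dync2h1, Dcun1d5, Mmp13, Mmp12, Mmp1b, Mmp3, Mmp10, Mmp8 and Mmp20, with Dync2h1 and Mmp1b on the minus strand and the others on the plus strand. By their GENCODE ends, Dync2h1 and Dcun1d5 point away from each other, with starts 74 bases apart. RefSeq places them otherwise, with the promoter window of Dync2h1 at chr9:7177039-7177178. The RefSeq windows of Dcun1d5 are chr9:7176470-7176609 and chr9:7184385-7184524, so a shared start region depends on the annotation. Mmp1a, which GENCODE lists as a polymorphic pseudogene, lies between Mmp3 and Mmp10, and Mmp27 lies between Mmp8 and Mmp20. Mmp12 and Mmp1b overlap on opposite strands over 1261 bases, of which 157 are exonic in both, 10.8% of the exon bases of Mmp1b. No source used here says whether the counting took account of strand, so reads from that stretch cannot be told apart. Near-copies add a further limit: of the 31-base words in Mmp1b transcripts, 20.7% also occur in Mmp1a and 9.16% in Mmp12, and of those in Mmp10, 11.9% occur in Mmp3.

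The promoters of the 7 proteases are shown because they fall into those with and without an AP-1 match, a split that runs with the levels below. Each line gives 120 bases before to 20 bases after the RefSeq start (GRCm38.p6), 5′ to 3′ on the gene's own strand. Capitals mark matches to the AP-1 site TGAGTCA and the TATA box TATAAA on either strand. For Mmp12 the second of its RefSeq starts is shown.
Mmp13: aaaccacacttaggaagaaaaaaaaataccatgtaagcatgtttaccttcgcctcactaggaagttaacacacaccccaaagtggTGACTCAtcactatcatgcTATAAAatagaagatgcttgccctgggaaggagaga
Mmp12: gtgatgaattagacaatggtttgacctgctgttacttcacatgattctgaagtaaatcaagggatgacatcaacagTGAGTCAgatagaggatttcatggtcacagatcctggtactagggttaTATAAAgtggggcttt
Mmp1b: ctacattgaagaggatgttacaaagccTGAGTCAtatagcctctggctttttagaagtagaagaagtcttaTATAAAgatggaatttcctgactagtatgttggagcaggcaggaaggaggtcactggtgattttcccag
Mmp3: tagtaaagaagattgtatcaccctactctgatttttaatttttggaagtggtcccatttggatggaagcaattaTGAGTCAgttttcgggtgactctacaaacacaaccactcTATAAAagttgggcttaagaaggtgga
Mmp10: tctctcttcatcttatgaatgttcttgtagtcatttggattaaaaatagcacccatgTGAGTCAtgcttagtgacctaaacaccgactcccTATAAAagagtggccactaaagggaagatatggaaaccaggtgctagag
Mmp8: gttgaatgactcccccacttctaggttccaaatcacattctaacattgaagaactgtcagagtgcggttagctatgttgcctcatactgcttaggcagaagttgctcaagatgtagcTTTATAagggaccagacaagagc
Mmp20: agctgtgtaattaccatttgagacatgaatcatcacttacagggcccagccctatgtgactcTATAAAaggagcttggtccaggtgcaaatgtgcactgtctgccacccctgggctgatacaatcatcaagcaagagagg
The windows are chr9:7272394-7272533 for Mmp13 (plus strand), chr9:7347254-7347393 for Mmp12 (plus), chr9:7388007-7388146 for Mmp1b (minus), chr9:7445702-7445841 for Mmp3 (plus), chr9:7502222-7502361 for Mmp10 (plus), chr9:7558309-7558448 for Mmp8 (plus) and chr9:7628111-7628250 for Mmp20 (plus).

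In windows of 250 bases before to 50 after the start, TGAGTCA was found in Mmp13, Mmp12, Mmp1b, Mmp3 and Mmp10, with the first base 35, 44, 93, 46 and 63 bases upstream of the start. It was not found in the windows of Mmp8, Mmp20, Dcun1d5 or Dync2h1, nor at the first start of Mmp12. Of 32851 RefSeq promoters in the table, 5.20% hold this word on either strand. The 5 genes with the match are the 5 that were higher in DNTCF4 than in Vector cells. Mmp1a also holds it, 73 bases upstream, and averaged under 1 CPM in each group. TATAAA stood in the windows of 7 of 7 proteases, for Mmp12 at its second start only, against 13.6% of all promoters. It overlapped no AP-1 match. The ETS word AGGAAG stood in 5 of 7, for Mmp12 only at its first start, which is not shown, against 35.4%. By window, with both starts of Mmp12, TATAAA stood in 7 of 8 and AGGAAG in 5 of 8. The TCF/LEF word CTTTGAT stood in 0 of 7, against 3.73%; this says only that these letters are not in these windows. The words were chosen with the letters and the expression results known, and a match is a description of sequence, not a bound site.

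Mmp13 dominated the cluster. It encodes collagenase-3, which cuts fibrillar collagens, the type II collagen of cartilage among them. Its level was 10837, 10934 and 10571 CPM in the DNTCF4_EZH2 libraries, 11208, 11356 and 11802 CPM in the DNTCF4_SET libraries, 18440, 15221 and 15626 CPM in the DNTCF4 libraries, and 3388, 3280.1 and 3307 CPM in the Vector libraries. The ranges of the 4 groups did not overlap, in the order DNTCF4, DNTCF4_SET, DNTCF4_EZH2 and Vector from high to low. The DNTCF4 mean was 4.94-fold the Vector mean, a log2 difference of 2.3 ± 0.06 (SE of the fit). By CPM, Mmp13 was at rank 2 of all genes in each of the 3 groups with DNTCF4 and at rank 10 in Vector cells. It alone took 1.08%, 1.14% and 1.63% of library counts in DNTCF4_EZH2, DNTCF4_SET and DNTCF4 cells and 0.336% in Vector cells. In bulk RNA, fewer cells that express a gene and less of its RNA per cell cannot be told apart.

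Mmp12 had the widest difference between DNTCF4 and Vector among the 9 genes. It encodes macrophage metalloelastase, named for the cells in which it was found. Its level was 204, 202 and 202 CPM in DNTCF4_EZH2 libraries, 221, 219.8 and 228 CPM in DNTCF4_SET libraries, 249, 221 and 233 CPM in DNTCF4 libraries, and 13.2, 15.1 and 12.6 CPM in Vector libraries. Every library with the dominant negative was thus above the Vector libraries, and the ranges of DNTCF4_SET and DNTCF4 overlapped. The log2 difference of DNTCF4 from Vector was 4.10 ± 0.06, or 17.1-fold. The summed level of 7 macrophage markers was 46.1 to 67.1 CPM in DNTCF4 and 54.4 to 58.6 CPM in Vector libraries, nearly all of it Cd68. In each group 5 of the 7 averaged under 1 CPM, and Adgre1 was at 0 counts in Vector cells and at 7 counts over the DNTCF4 libraries.

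Mmp3 and Mmp1b were also higher with the dominant negative. Mmp3 encodes stromelysin-1, which cuts proteoglycans, fibronectin and other matrix proteins and can activate other proenzymes of the family. Its level was 1909.8, 1881 and 1899 CPM in DNTCF4_EZH2 libraries, 1686, 1681 and 1716 CPM in DNTCF4_SET libraries, 2162, 1999.7 and 2055 CPM in DNTCF4 libraries, and 559, 579 and 593 CPM in Vector libraries. The 4 ranges did not overlap, and here DNTCF4_EZH2 stood above DNTCF4_SET. DNTCF4 was 3.59-fold Vector, a log2 difference of 1.84 ± 0.04. Mmp1b is 1 of the mouse copies related to human interstitial collagenase. It had 23.4, 21.3 and 20.7 CPM in DNTCF4_EZH2 libraries, 22.7, 20.7 and 23.3 CPM in DNTCF4_SET libraries, 32.8, 26.6 and 29.2 CPM in DNTCF4 libraries, and 15.0, 15.9 and 15.8 CPM in Vector libraries. The groups with a second construct overlapped each other and lay between DNTCF4 and Vector. The log2 difference of DNTCF4 from Vector was 0.92 ± 0.08, and 0.89 with the counts of Mmp1a and Mmp1b summed before the fit.

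Mmp10 followed another order. It encodes stromelysin-2, the closest relative of Mmp3 in the cluster. Its level was 229.7, 225 and 226 CPM in DNTCF4_EZH2 libraries, 317, 313 and 320.0 CPM in DNTCF4_SET libraries, 690.1, 633 and 628 CPM in DNTCF4 libraries, and 365, 367 and 366 CPM in Vector libraries. The 4 ranges did not overlap, and the groups with a second construct lay below Vector rather than between Vector and DNTCF4. Against Vector, the log2 difference was 0.83 ± 0.04 in DNTCF4 cells, -0.69 ± 0.04 in DNTCF4_EZH2 cells and -0.21 ± 0.04 in DNTCF4_SET cells. Mmp10 was the only 1 of the 9 genes that was higher than Vector in DNTCF4 cells and lower than Vector in both groups with a second construct.

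**Figure D1:**
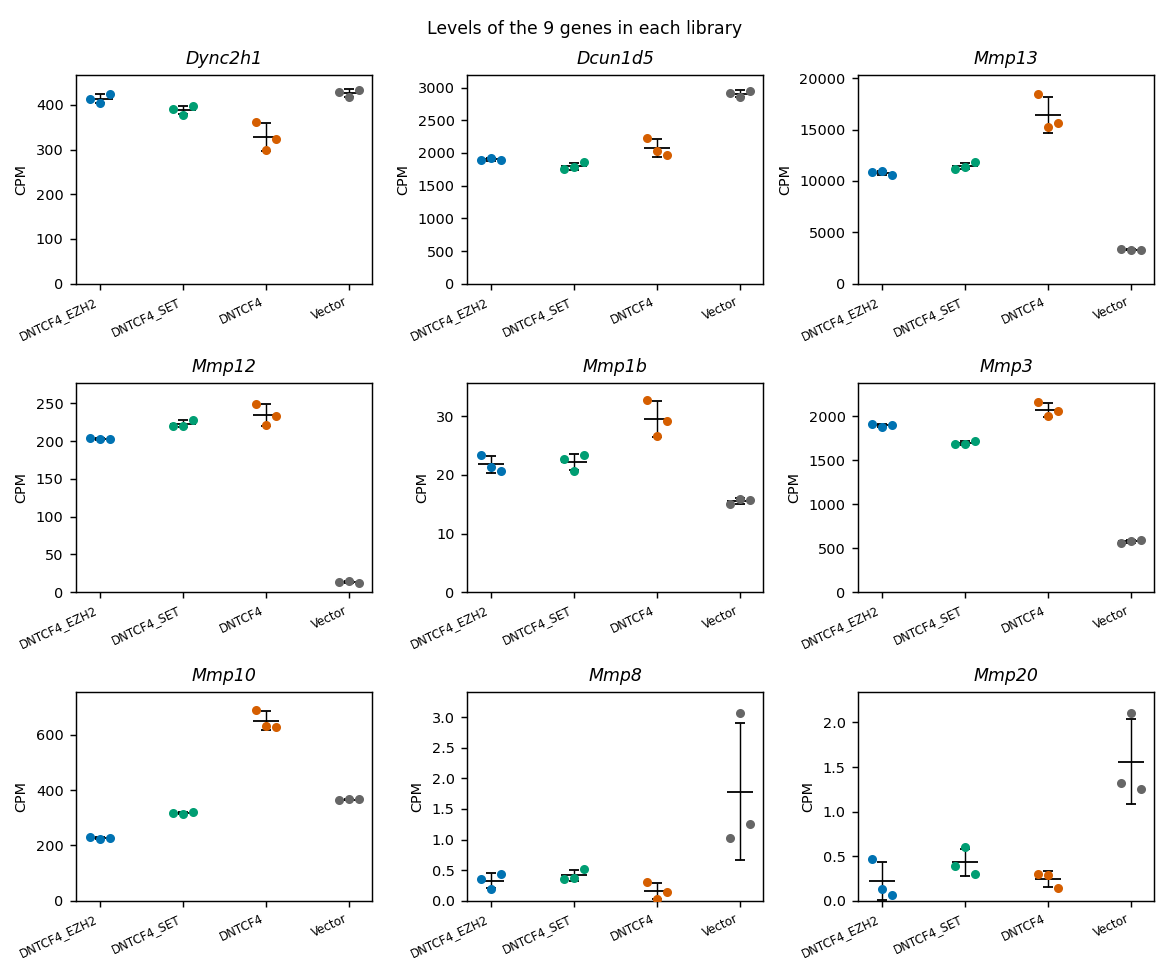
Level of each of the 9 genes in CPM (vertical axes, from 0) in the 12 libraries, by group; points are libraries and bars are the mean ± SD of 3. Mmp13, Mmp12, Mmp3 and Mmp1b are lowest in Vector cells, Mmp10 is highest in DNTCF4 and lowest in DNTCF4_EZH2 cells, and Mmp8 and Mmp20 stay near or below 3 CPM.

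Mmp8 and Mmp20 were close to the floor of the data. Mmp8 encodes neutrophil collagenase, and Mmp20 encodes enamelysin, an enzyme of the cells that form tooth enamel. Mmp8 had 12, 6 and 13 counts in DNTCF4_EZH2 libraries, 10, 10 and 17 in DNTCF4_SET libraries, 8, 1 and 4 in DNTCF4 libraries, and 27, 83 and 30 in Vector libraries. Mmp20 had 16, 4 and 2 counts in DNTCF4_EZH2 libraries, 11, 16 and 10 in DNTCF4_SET libraries, 8, 9 and 4 in DNTCF4 libraries, and 35, 57 and 30 in Vector libraries. For both genes each Vector library lay above each library with the dominant negative, and Vector replicate 2 was the highest. Means were 0.161 ± 0.137 CPM in DNTCF4 and 1.78 ± 1.12 CPM in Vector cells for Mmp8, and 0.246 ± 0.0867 and 1.56 ± 0.474 CPM in the same order for Mmp20, with 3 counts equal to 0.0882 to 0.127 CPM.

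The log2 differences of DNTCF4 from Vector were -3.50 ± 0.56 for Mmp8 and -2.64 ± 0.47 for Mmp20. In this comparison no DNTCF4 library reached the 10 counts that the filter asks for, while each Vector library did. With 1 library left out the value for Mmp8 ran from -4.32, without DNTCF4 replicate 1, to -2.85, without Vector replicate 2. Vector libraries also held counts for more olfactory and vomeronasal receptor genes, which belong to sensory neurons. Such genes with a count numbered 241 to 311 in DNTCF4_EZH2 libraries, 325 to 472 in DNTCF4_SET libraries and 69, 81 and 77 in DNTCF4 libraries, against 550, 774 and 609 in Vector libraries, with Vector replicate 2 again the highest. The summed level of 7 neutrophil markers was 45.6 to 51.9 CPM in DNTCF4 and 10.9 to 12.4 CPM in Vector libraries, nearly all of it S100a8, and 6 of the 7 averaged under 1 CPM in each group. The 4 leukocyte markers summed to 0.0763 to 0.573 CPM in DNTCF4 and 0.754 to 1.41 CPM in Vector libraries, with Ptprc at 0 counts in DNTCF4 cells. The 4 ameloblast markers summed to at most 0.0956 CPM in DNTCF4 and 0.185 CPM in Vector libraries. The part of these signals in the Mmp8 and Mmp20 values was not tested.

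Dcun1d5 and Dync2h1, a divergent pair by GENCODE at the edge of the cluster, were lower in DNTCF4 than in Vector cells. Dcun1d5 encodes a factor of the DCN1 type that promotes attachment of NEDD8 to cullins. Its level was 1887, 1925 and 1897 CPM in DNTCF4_EZH2 libraries, 1755, 1786 and 1857 CPM in DNTCF4_SET libraries, 2235, 2037 and 1972 CPM in DNTCF4 libraries, and 2921, 2851 and 2950.0 CPM in Vector libraries. The ranges did not overlap, and both groups with a second construct lay further from Vector than DNTCF4 did. Dync2h1 encodes the heavy chain of the dynein that carries cargo back along the cilium. It had 414, 404 and 424 CPM in DNTCF4_EZH2 libraries, 390.4, 378 and 397 CPM in DNTCF4_SET libraries, 362, 299.8 and 323 CPM in DNTCF4 libraries, and 428, 418 and 433 CPM in Vector libraries. DNTCF4 was lowest, and the ranges of DNTCF4_EZH2 and Vector overlapped. The log2 differences of DNTCF4 from Vector were -0.48 ± 0.04 for Dcun1d5 and -0.38 ± 0.05 for Dync2h1. Vector was highest for both genes, but the order of the groups with the dominant negative was unlike.

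Per length, the order within the cluster also shifted. On the scale of CPM per kilobase of annotated exon, Mmp13 averaged 4033 in DNTCF4_EZH2, 4286 in DNTCF4_SET, 6146 in DNTCF4 and 1244 in Vector cells, the highest level of the 9 genes in each group. Mmp3 averaged 1053, 941 and 1151 in the 3 groups with DNTCF4 and 320.4 in Vector cells. Dcun1d5 averaged 619, 585 and 676 in the groups with DNTCF4 and 945 in Vector cells. Mmp3 was therefore above Dcun1d5 in the groups with the dominant negative and below it in Vector cells. Mmp12 averaged 28.0, 30.8 and 32.4 in the groups with DNTCF4 and 1.89 in Vector cells, while Mmp1b averaged 15.1, 15.4 and 20.4 and, in Vector cells, 10.8. Mmp12 was thus above Mmp1b with the dominant negative and below it in Vector cells, with all annotated exons or with the principal transcript as length. Mmp10, at 132, 184 and 378 with DNTCF4 and 213 in Vector cells, stayed above Mmp12, and Mmp8 and Mmp20 were under 1 in each group.

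As a sum, the 7 proteases took 1.31 ± 0.017% of library counts in DNTCF4_EZH2, 1.37 ± 0.038% in DNTCF4_SET, 1.93 ± 0.17% in DNTCF4 and 0.434 ± 0.005% in Vector cells. Mmp13 made up 82.1%, 83.5% and 84.6% of their summed CPM in the groups with DNTCF4 and 77.3% in Vector cells. Most of the difference between the sums was thus that of Mmp13.

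Counted by the fit over all genes (edgeR's quasi-likelihood test, Benjamini-Hochberg adjusted p under 0.05), 9 of the 9 genes were called in DNTCF4 against Vector, 5 higher and 4 lower. Over all 15052 genes 57.5% were called, 29.5% higher and 28.0% lower, and the members were chosen from this contrast, so nothing is read from their count. In DNTCF4_EZH2 against DNTCF4, 7 were called, 1 higher and 6 lower, with 25.5% of all genes called, 13.0% higher and 12.5% lower. In DNTCF4_SET against DNTCF4, 6 were called, 1 higher and 5 lower, with 26.0% of all genes called, 12.7% higher and 13.3% lower. Between DNTCF4_EZH2 and DNTCF4_SET, 2 were called, 1 in each direction, with 5.16% of all genes called, 3.00% higher and 2.17% lower. In DNTCF4_EZH2 against Vector, 8 were called, 4 in each direction, with 57.7% of all genes called, 28.7% higher and 29.0% lower. In DNTCF4_SET against Vector, 9 were called, 4 higher and 5 lower, with 58.0% of all genes called, 28.1% higher and 29.9% lower. Comparisons against DNTCF4 or against Vector share those libraries.

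The groups with a second construct differed from DNTCF4 by unequal amounts across the cluster. Mmp10 stood out in size: DNTCF4_EZH2 was 2.87-fold lower than DNTCF4, a log2 difference of -1.52 ± 0.04, and DNTCF4_SET was 2.05-fold lower, -1.04 ± 0.04. Mmp13 differed by -0.61 ± 0.05 in DNTCF4_EZH2 and -0.52 ± 0.05 in DNTCF4_SET. Mmp1b differed by -0.43 ± 0.07 and -0.40 ± 0.08 in the same order. Mmp3, by -0.13 ± 0.03 and -0.29 ± 0.03, and Mmp12, by -0.21 ± 0.05 and -0.07 ± 0.05, stayed closer to DNTCF4, and the DNTCF4_SET and DNTCF4 ranges of Mmp12 overlapped. Dync2h1 was the 1 member called higher than in DNTCF4 cells, by 0.33 ± 0.05 and 0.24 ± 0.05. For Dcun1d5 the differences were -0.13 ± 0.04 and -0.21 ± 0.04, and they add to its difference from Vector; the call in DNTCF4_EZH2 was lost without DNTCF4 replicate 1, at -0.08, or without any 1 of the DNTCF4_EZH2 libraries. Mmp8 and Mmp20, with at most 17 counts in any library of these 3 groups, were not called. Without DNTCF4 replicate 1, Mmp8 was called in DNTCF4_SET, at 2.24, against 1.42 ± 0.67 with all libraries.

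**Figure D2:**
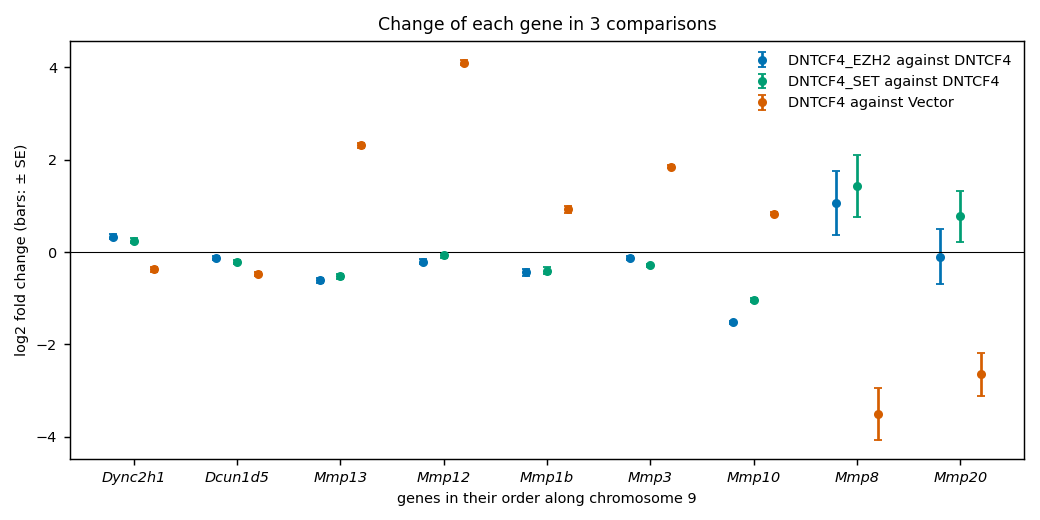
Log2 fold change of each of the 9 genes (horizontal axis, in chromosome order) for DNTCF4_EZH2 against DNTCF4, DNTCF4_SET against DNTCF4 and DNTCF4 against Vector; points are fitted values and bars are ± SE. Mmp12 has the largest change in DNTCF4 against Vector (4.10) and Mmp10 has the most negative values in DNTCF4_EZH2 and DNTCF4_SET against DNTCF4 (-1.52 and -1.04).

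The difference of each group with a second construct from Vector was set against that of DNTCF4 from Vector, in mean CPM. As a share of the DNTCF4 difference it varied among the proteases. For Mmp12 the share was 85.7% in DNTCF4_EZH2 and 94.8% in DNTCF4_SET cells. It was 88.2% and 74.7% for Mmp3, 56.9% and 62.0% for Mmp13, and 44.6% and 47.8% for Mmp1b, each in the same order. Mmp10 lay below the Vector level, at -49.0% and -17.3%. For Dync2h1, lower in DNTCF4 than in Vector cells, the share was 12.7% and 38.9%, and for Dcun1d5 it was 122% and 134%. Among the proteases named here the related stromelysins Mmp3 and Mmp10 were furthest apart in DNTCF4_EZH2 cells.

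Between DNTCF4_EZH2 and DNTCF4_SET, the members called in the fit over 12 libraries were those same genes. Mmp10 differed by -0.48 ± 0.04 and Mmp3 by 0.16 ± 0.03, in opposite directions. The call of Mmp3 was lost without DNTCF4_EZH2 replicate 1 or DNTCF4_SET replicate 2, at 0.16 in either case. The ratio of Mmp3 to Mmp10 in CPM was 8.37 ± 0.0511 in DNTCF4_EZH2, 5.35 ± 0.0254 in DNTCF4_SET, 3.19 ± 0.0755 in DNTCF4 and 1.58 ± 0.0423 in Vector cells, with no overlap between groups. Mmp13 and Mmp12 were lower in each DNTCF4_EZH2 than in each DNTCF4_SET library, at log2 differences of -0.09 ± 0.05 and -0.14 ± 0.05, and were not called. Dcun1d5 and Dync2h1 were higher in each DNTCF4_EZH2 than in each DNTCF4_SET library, at 0.08 ± 0.04 and 0.09 ± 0.05, and were not called either.

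Over the 12 libraries, log2 CPM of Mmp13 correlated with that of Mmp3 at r = 0.98 and with Mmp12 at r = 0.97, and Mmp12 with Mmp3 at r = 0.99. Mmp10 correlated with Mmp13 at r = 0.25 and with Mmp3 at r = 0.07. These are descriptions over 12 libraries in 4 groups, in which differences between groups make up most of the variation. Of 15043 other genes, the 5 most like Mmp13 by this measure were Hgsnat (r = 0.994), Slc39a14, Bcl2l11, Rnf14 and Cxcl1. The 5 most like Mmp3 were Lilr4b (r = 0.996), Nfkbiz, Lilrb4a, Nlrc5 and Slc23a2. Cxcl1, a neutrophil-attracting chemokine, averaged 700.2, 900.4 and 1269.9 CPM in DNTCF4_EZH2, DNTCF4_SET and DNTCF4 cells and 46.2 CPM in Vector cells, the same order of groups as Mmp13.

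The neighbourhood was then examined, since genes beside the cluster were not picked for their values and can be tested. Of 13 other tested genes that start within 1 Mb of the span, 9 were called in DNTCF4 against Vector, 1 higher and 8 lower, a share to be read against the 57.5% of all genes. Their median log2 difference was -0.39, against 0.01 over all genes. The other proteases within the stretch did not follow Mmp13: Mmp1a averaged 0.325 CPM in DNTCF4 and 0.511 CPM in Vector cells (adjusted p = 0.262, edgeR), Mmp27 0.652 and 0.543 CPM (adjusted p = 0.547), and Mmp7, just outside, 0.439 and 0.284 CPM (adjusted p = 0.331). Values this low limit what could be seen for them.

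Beyond Mmp7 lie 4 abundant genes, described here with their values known. Yap1, a transcriptional coactivator of the Hippo pathway, fell by 0.39 on the log2 scale (adjusted p = 1.32e-07), with 3663 CPM in DNTCF4 and 4807 CPM in Vector cells. Tmem123 fell by 0.66 (adjusted p = 7.69e-08), and Birc3, an inhibitor of apoptosis, fell by 0.13 (adjusted p = 0.00513). For Birc2, its relative next door, the difference was 0.02 ± 0.07 (adjusted p = 0.84). On the far side, Pdgfd, a platelet-derived growth factor, rose 7.29-fold (adjusted p = 1.61e-07), with 1.91 CPM in DNTCF4 and 0.258 CPM in Vector cells. The pseudogenes Gm19212 and 1700128F08Rik fell (adjusted p = 2.42e-06 and 0.00237). Gm19212 had 0 counts in DNTCF4 libraries against 89, 348 and 117 in Vector libraries, at least 199-fold lower from a floor of 3 counts over the group. Vector replicate 2 was again the highest, and without it the bound was 117-fold, a value chosen after seeing the data. The 1700128F08Rik change was -1.70 ± 0.41. For both pseudogenes no DNTCF4 library reached the 10 counts that the filter asks for, while each Vector library did. For Pdgfd the reverse held, with 7, 7 and 6 counts in Vector libraries. In this comparison Gm19212, 1700128F08Rik and Pdgfd thus pass through 1 group only. Their p-values, and their part in the 9 neighbours called, are a description.

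**Figure D3:**
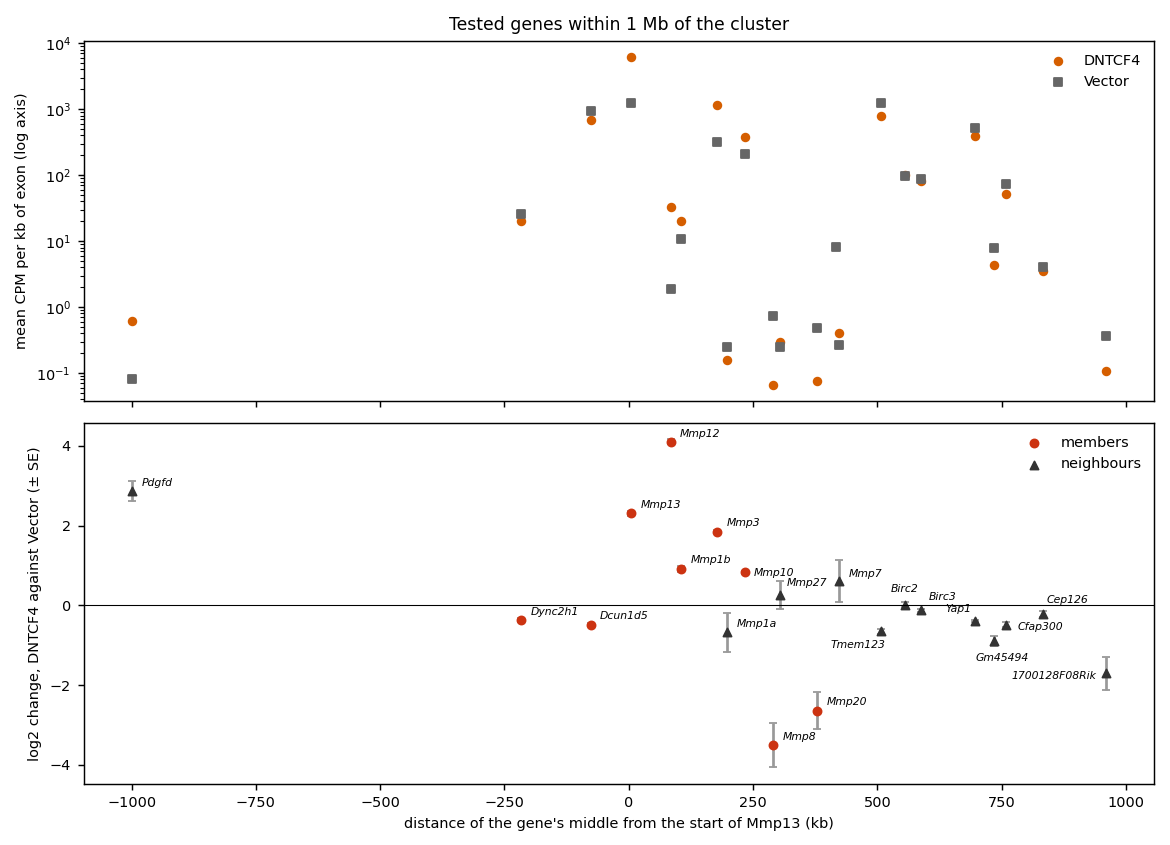
Tested genes within 1 Mb of the cluster by the distance of their middle from the start of Mmp13 in kb; the upper panel gives mean CPM per kilobase of exon on a log axis in DNTCF4 and Vector cells, the lower panel the log2 change of DNTCF4 against Vector ± SE. The 5 members above 0 are Mmp13, Mmp12, Mmp1b, Mmp3 and Mmp10, with Mmp1a, not called, among them. Dcun1d5 before them and Mmp8 and Mmp20 after them are below 0. Tmem123, also lower in DNTCF4, lies further off, past Mmp27 and Mmp7, which were not called. Gm19212, at 0 counts in DNTCF4, is shown only in the upper panel by its Vector value.

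Several genes along this stretch were among the most abundant of the line. By CPM, Yap1 was at rank 7 to 9 of all genes in the 4 groups, Tmem123 at rank 8 to 13, Dcun1d5 at rank 12 to 24 and Mmp13 at rank 2 to 10. Birc2 and Birc3 lay between the 95th and the 98th percentile of tested genes per kilobase in each group. Pdgfd, on the other side, lay between the 4th and the 24th percentile. DNA copy number was not measured here, and its part in these levels was not tested.

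With a second construct, the neighbours did not repeat the pattern of the proteases. In DNTCF4_EZH2 against DNTCF4, 5 of 13 were called, 3 higher and 2 lower, with a median of 0.07, against 25.5% of all genes. The count was 3 without DNTCF4 replicate 2 or 3 or DNTCF4_EZH2 replicate 2. In DNTCF4_SET against DNTCF4, 4 were called, 2 in each direction, against 26.0%. Birc2 fell by 0.29 in DNTCF4_EZH2 and by 0.46 in DNTCF4_SET cells (adjusted p = 0.00676 and 0.000208, edgeR), and Birc3 fell by 0.15 and 0.20 (adjusted p = 0.00565 and 0.000586). Yap1 gave -0.02 ± 0.03 and -0.09 ± 0.03 (adjusted p = 0.772 and 0.0549). Between DNTCF4_EZH2 and DNTCF4_SET, edgeR called 0 of the 13, with 5 at an unadjusted p under 0.05, and the DESeq2 Wald test called 0.

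The other metalloproteinase genes, Mmp1a, Mmp7 and Mmp27 among them, were counted as a list. This list and those below were drawn up with earlier results of these data known, and genes are named from them by smallest p. Their counts and p-values are therefore a description. Of 16 metalloproteinases listed, 13 were tested, and 8 were called in DNTCF4 against Vector, 6 higher and 2 lower, with a median of 0.24. Over all genes 57.5% were called, 29.5% higher and 28.0% lower. Mmp9, the gelatinase B gene, rose 19.1-fold (adjusted p = 3.67e-10) but only to 4.26 CPM in DNTCF4, against 0.222 CPM in Vector cells. Its Vector level is under the filter on low counts, so in this comparison Mmp9 passes through DNTCF4 only. Mmp2, the gelatinase A gene and the most abundant of the 16, rose 1.10-fold to 2224 CPM in DNTCF4, against 2029 CPM in Vector cells (adjusted p = 0.00261). Mmp11 rose by 0.25 on the log2 scale (adjusted p = 0.00171). Mmp28 fell 2.38-fold and Mmp19 fell by 0.54 on the log2 scale (adjusted p = 1.44e-09 and 9.51e-06). In both groups with a second construct 6 of 13 rose against DNTCF4 and 0 fell. Over all genes 13.0% rose and 12.5% fell in DNTCF4_EZH2, and 12.7% rose and 13.3% fell in DNTCF4_SET. Mmp9 rose 1.66-fold in DNTCF4_EZH2 and 1.80-fold in DNTCF4_SET (adjusted p = 0.000311 and 9.15e-05), Mmp17 rose 1.85-fold and 1.78-fold (adjusted p = 6.45e-05 and 0.000148), and Mmp14, a membrane-bound activator of pro-Mmp2, rose 1.21-fold in each (adjusted p = 0.00346 and 0.0034). In the same comparisons Mmp13, Mmp3, Mmp1b and Mmp10 of the cluster were lower.

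Inhibitors of these proteases were counted next. Of 6 listed, 4 were tested and 4 were called in DNTCF4 against Vector, 1 higher and 3 lower, against 57.5% of all genes. In DNTCF4_EZH2 and in DNTCF4_SET against Vector 2 were higher and 2 lower, with 57.7% and 58.0% of all genes called. Against DNTCF4 these shares were 25.5% and 26.0%. Timp3 fell 2.82-fold, with 136 CPM in DNTCF4 and 383 CPM in Vector cells (adjusted p = 1.91e-14, edgeR). Timp1 fell 2.79-fold (adjusted p = 2.61e-11) and Timp2 fell by 0.15 on the log2 scale (adjusted p = 0.000369). Reck, a membrane-anchored inhibitor, rose by 2.06 but stayed under 1 CPM in both groups (adjusted p = 8.21e-05). At 0.154 CPM in Vector cells, Reck was there under the filter on low counts. In DNTCF4_EZH2 against DNTCF4, Timp2 and Timp3 rose by 0.35 and 0.18 (adjusted p = 2.85e-07 and 0.00123). In DNTCF4_SET, Timp2 and Reck rose, by 0.29 and 0.69 (adjusted p = 3.13e-06 and 0.0436), and without DNTCF4 replicate 1 the count was 1. Timp1 was at 29.5 CPM in DNTCF4_EZH2, 26.4 CPM in DNTCF4_SET and 26.5 CPM in DNTCF4 cells and was not called between them.

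Proenzyme activation runs in part through plasmin. The list of 7 activation genes holds that system, furin and Bsg, which encodes basigin, an inducer of these proteases. Of its 6 tested genes, 5 were called in DNTCF4 against Vector, 2 higher and 3 lower, with a median of -0.02. Over all genes 57.5% were called. Against DNTCF4, 3 were called in DNTCF4_EZH2, 2 of them higher, and 5 in DNTCF4_SET, 4 of them higher. The shares of all genes called were 25.5% and 26.0% in the same order. Plaur, the urokinase receptor, fell by 0.66 (adjusted p = 4.09e-08, edgeR), and Plat, tissue plasminogen activator, fell by 0.52 (adjusted p = 1.03e-06). Bsg fell by 0.13 (adjusted p = 0.00194). Plau, the urokinase gene, rose by 0.21 in DNTCF4 (adjusted p = 0.000753) and fell by 0.66 and 0.54 against DNTCF4 in DNTCF4_EZH2 and DNTCF4_SET cells (adjusted p = 2.86e-08 and 3.91e-07). Plau was at 35.6 and 38.9 CPM in those groups, 56.5 CPM in DNTCF4 and 48.9 CPM in Vector cells, the same order of groups as Mmp10.

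Cytokines that induce these proteases and their receptors made up a list of 11, of which 8 were tested. In DNTCF4 against Vector 7 were called, 4 higher and 3 lower, with 57.5% of all genes called. Il1a, which encodes interleukin-1 alpha, rose by 7.66 on the log2 scale, with 74.2 CPM in DNTCF4 and 0.355 CPM in Vector cells (adjusted p = 1.06e-15). The Vector level of Il1a is close to the filter on low counts. Il6 rose by 2.62 (adjusted p = 2.26e-11), with 17.4 CPM in DNTCF4 and 2.83 CPM in Vector cells, and Tnf rose by 2.14 (adjusted p = 3.4e-07), with 4.61 and 1.05 CPM in the same order. Fgf2 fell by 0.40 (adjusted p = 3.35e-06, edgeR). Against DNTCF4, 3 genes of the list were called in each group with a second construct, with 25.5% and 26.0% of all genes called. In DNTCF4_EZH2 1 was higher and 2 were lower, and in DNTCF4_SET 2 were higher and 1 was lower. Il6 fell by 0.52 in DNTCF4_EZH2 (adjusted p = 0.000387, edgeR) and was not called in DNTCF4_SET, at 0.18. Fgf2 rose by 0.30 in DNTCF4_SET (adjusted p = 0.000232). Il1a fell by 1.01 in DNTCF4_EZH2 and by 0.63 in DNTCF4_SET (adjusted p = 3.18e-08 and 6.58e-06).

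Genes of AP-1, of ETS, RUNX and CEBP, and of NF-kB and its regulators were counted as 3 lists. No NF-kB, RUNX or CEBP word was searched for in the promoters. The counts are to be read against the share of all genes called. It was 57.5% in DNTCF4 against Vector, and 25.5% and 26.0% in DNTCF4_EZH2 and DNTCF4_SET against DNTCF4. Of 8 AP-1 genes, 6 were called in DNTCF4 against Vector, 5 higher and 1 lower. Fosb rose by 0.61 (adjusted p = 5.02e-06), Fosl2 by 0.38 (adjusted p = 5.83e-06) and Jund by 0.30 (adjusted p = 0.00154), while Fos fell by 0.66 (adjusted p = 5.52e-07). Against DNTCF4, 2 were called in each group with a second construct, 0 higher; without DNTCF4 replicate 1 the count was 6 in each. Atf3 fell by 0.81 in DNTCF4_EZH2 and 0.56 in DNTCF4_SET (adjusted p = 2.79e-09 and 2.2e-07). Of 9 ETS, RUNX and CEBP genes, 8 were called in DNTCF4 against Vector, 6 higher and 2 lower, and Ets2 rose by 0.61 (adjusted p = 1.22e-08). Against DNTCF4, edgeR called 0 of them in DNTCF4_EZH2, with 1 at an unadjusted p under 0.05, and 1 in DNTCF4_SET; without DNTCF4 replicate 1 the counts were 3 and 2. Of 6 genes of NF-kB and its regulators, 3 were called in DNTCF4 against Vector, each higher, and without DNTCF4 replicate 1 the count was 5. Nfkbiz rose by 1.81 (adjusted p = 2.73e-15) and Nfkb1 by 0.65 (adjusted p = 7.24e-10). Against DNTCF4, Nfkbiz fell by 0.28 in DNTCF4_EZH2 and 0.32 in DNTCF4_SET cells (adjusted p = 1.4e-05 and 5.31e-06), and 2 of the 6 were called in each group, or 4 and 5 without DNTCF4 replicate 1.

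Genes for proteins that the proteases cut were counted as a last list. Of 7 listed, 4 were tested and 3 were called in DNTCF4 against Vector, each lower, with 57.5% of all genes called. Col1a2 fell by 2.29 on the log2 scale, with 169 CPM in DNTCF4 and 829 CPM in Vector cells (adjusted p = 1.06e-15, edgeR). Col1a1 fell by 1.84 (adjusted p = 1.36e-12) and Fn1 by 1.18 (adjusted p = 1.86e-11). In both groups with a second construct the same 3 genes were above DNTCF4; Col1a2 rose by 0.54 in DNTCF4_EZH2 and 0.39 in DNTCF4_SET (adjusted p = 7.73e-08 and 4.47e-06). Col2a1, a cartilage substrate of Mmp13, averaged 0.68 CPM in DNTCF4 and 0.342 CPM in Vector cells, a log2 difference of 1.00 ± 0.45 that was not called (adjusted p = 0.0687).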

How the data were processed

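RNA-seq libraries of 12 samples, 3 in each of 4 groups named by the labels, were analysed from 2 tables. Per the submitters' processing notes, the tools named are RSEM 1.3.3, STAR 2.7.8a, DESeq2, cutadapt 2.3 and FastQC 0.11.8, and the build is GRCm38. No source used here gives their settings or the use of strand. The first table holds the authors' expected counts per gene, which were whole numbers (rounding changed 0 values). The second holds log2 values (rlog) deposited by the authors for 21754 genes.

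Expected counts were scaled with TMM and tested with edgeR 4.0.16 in R 4.3.3 (quasi-likelihood test, 2-sided, 1 fit over 12 libraries, filterByExpr with a minimum count of 10 and a minimum total of 15, 15052 genes kept). Benjamini-Hochberg adjustment ran over all genes tested, with a threshold of 0.05. Levels are TMM-scaled CPM, per kilobase of annotated exon where genes are compared with each other. Correlations used log2 CPM with a prior count of 2. Alternatives were DESeq2 1.42.0, limma 3.58.1 on the rlog values, other scaling and filters, a replicate block and libraries left out. The fit was tested on simulated data. Library totals were 23597545 to 33999982 counts, and a floor of 3 counts, which covers counting error only, equals 0.0882 to 0.127 CPM.

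Members, lists and motifs were chosen with earlier results of these data known. Named genes were the members, proteases within the span, called neighbours with a log2 change of at least 1, and up to 4 genes per list with the smallest p. Gene positions are from GENCODE and promoters from RefSeq (GRCm38.p6).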

Additional observations from a re-analysis of the deposited data

How the results depend on the processing

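No called log2 change of the 9 genes changed sign under any setting run. Of those not called, Mmp20 in DNTCF4_EZH2 against DNTCF4 changed sign without 4 of the 6 libraries in turn (-1.27 to 0.31), and Mmp1b in DNTCF4_EZH2 against DNTCF4_SET without 2 of 6 (-0.08 to 0.01). Between DNTCF4_EZH2 and DNTCF4_SET, 2 of the 9 were called in the fit over 12 libraries and 4 in a fit of only the 6 libraries compared; among the 13 neighbours these counts were 0 and 3, with 3 also when no filter on low counts was used. For DNTCF4_EZH2 against DNTCF4, 5 neighbours were called, and 3 with only 6 libraries. The cause was not tested. The replicate numbers did not pair the libraries, since 1 of 18 same-numbered pairs correlated above 0.1; a replicate block gave 9, 7, 6, 2, 8 and 9 members called, as without it, and moved the neighbour count between DNTCF4_EZH2 and DNTCF4_SET to 1.

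With 1 library left out, the members called were 9 for DNTCF4 against Vector, 6 to 7 for DNTCF4_EZH2 and for DNTCF4_SET against DNTCF4, 1 to 2 between those groups, 8 for DNTCF4_EZH2 and 8 to 9 for DNTCF4_SET against Vector. Neighbours called were 8 to 10 for DNTCF4 against Vector, 3 to 4 for DNTCF4_EZH2 and 4 to 6 for DNTCF4_SET against DNTCF4, 0 between those groups, and 9 to 10 for each against Vector. Dync2h1 in DNTCF4_SET against Vector lost its call with rlog values (adjusted p = 0.0552, limma) and without 5 of the 6 libraries in turn. On the rlog scale, which shrinks low counts, DNTCF4 against Vector was -0.33 for Mmp8 and -0.27 for Mmp20. Mmp8 and Mmp20 are limited by depth.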
